A study of Homo sapiens with 9 samples.

Results

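Metallothioneins are small cysteine-rich proteins that bind zinc, copper and cadmium, and the genes studied here are 7 of them (MT1E, MT1F, MT1G, MT1H, MT1M, MT1X and MT2A) with MTF1, the zinc-sensing transcription factor that activates them, and SLC30A1, the plasma membrane exporter that moves zinc out of the cell. They were chosen by gene symbol, and all 9 symbols were found among the 24204 symbols of the expression table. RNA-seq was done in HepG2, a human liver cancer cell line, to ask which transcripts depend on TRIB3, a stress-induced pseudokinase. Lentiviral short hairpin RNAs were used, a control one (shCtrl) and 2 that target TRIB3 (shTRIB3-1, shTRIB3-2). Cells were infected for 48 h and then kept in puromycin for 48 h, so virus and antibiotic were common to the 3 groups of 3 libraries. All groups are 1 cell line, and the labels give high-glucose DMEM with serum. The study's methods speak of glutamine-deprived cells, in a section that covers its glutamine deprivation RNA-seq too. Its discussion describes perturbed repair gene expression after TRIB3 depletion without glutamine deprivation. The labels and discussion thus point to medium with glutamine, which the methods do not state for these libraries. Nothing says that the libraries of a group came from separate cultures, so p-values measure the spread between these libraries, which may be technical.

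In liver cells, metallothioneins hold much of the exchangeable zinc and protect against heavy metals and oxidants. When free zinc rises, MTF1 binds short metal response elements upstream of the metallothionein genes and of SLC30A1 and raises their transcription, which buffers the metal and removes it. Glucocorticoids and interleukin-6 are also known inducers of metallothioneins in liver.

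The 7 metallothionein genes lie within 75.6 kb of chromosome 16 (GRCh38, GENCODE 44), from the start of MT2A at 56608584 to the end of MT1X at 56684196, and all are protein-coding. MTF1 (37809574 to 37859592) and SLC30A1 (211571568 to 211579161) are on the minus strand of chromosome 1. The 250 bases upstream of the gene start were available from RefSeq (GRCh38.p14) for MT2A, MT1H, MT1X, SLC30A1, MTF1 and the neighbouring metallothionein gene MT1B. Those of the metallothioneins and SLC30A1 are shown because metal response elements, through which MTF1 is known to act, lie upstream of such genes. Capitals mark each match to the 7-letter core of the metal response element, TGCACNC or TGCGCNC, searched on both strands.
MT2A, chr16:56608334-56608583, plus strand: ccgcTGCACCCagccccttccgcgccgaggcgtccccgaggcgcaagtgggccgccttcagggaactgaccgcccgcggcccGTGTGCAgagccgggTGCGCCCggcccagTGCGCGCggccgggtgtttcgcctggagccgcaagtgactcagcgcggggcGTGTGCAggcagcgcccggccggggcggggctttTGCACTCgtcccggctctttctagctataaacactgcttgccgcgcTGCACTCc
MT1H, chr16:56669564-56669813, plus strand: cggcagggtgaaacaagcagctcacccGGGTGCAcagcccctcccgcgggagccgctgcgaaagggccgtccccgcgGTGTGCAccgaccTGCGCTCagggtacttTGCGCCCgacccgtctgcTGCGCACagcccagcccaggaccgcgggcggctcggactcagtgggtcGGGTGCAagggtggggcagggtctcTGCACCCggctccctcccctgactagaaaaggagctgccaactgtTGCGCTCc
MT1X, chr16:56682220-56682469, plus strand: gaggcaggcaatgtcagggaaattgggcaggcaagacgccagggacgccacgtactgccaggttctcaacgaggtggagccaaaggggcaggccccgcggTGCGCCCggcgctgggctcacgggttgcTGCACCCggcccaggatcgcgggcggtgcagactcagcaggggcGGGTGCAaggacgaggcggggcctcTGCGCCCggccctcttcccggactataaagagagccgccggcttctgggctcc
MT1B, chr16:56651636-56651885, plus strand: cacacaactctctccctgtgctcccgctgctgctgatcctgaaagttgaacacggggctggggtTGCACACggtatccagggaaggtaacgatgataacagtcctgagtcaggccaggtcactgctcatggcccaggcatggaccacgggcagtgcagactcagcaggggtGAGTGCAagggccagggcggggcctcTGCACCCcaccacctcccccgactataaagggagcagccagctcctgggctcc
SLC30A1, chr1:211579162-211579411, minus strand: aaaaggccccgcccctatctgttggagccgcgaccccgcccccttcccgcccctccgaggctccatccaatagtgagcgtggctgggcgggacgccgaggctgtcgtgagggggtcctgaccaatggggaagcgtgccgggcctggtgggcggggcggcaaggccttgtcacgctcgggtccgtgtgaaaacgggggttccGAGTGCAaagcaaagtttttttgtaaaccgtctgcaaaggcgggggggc
The core was found 7 times upstream of MT2A, 8 times upstream of MT1H, 4 times upstream of MT1X, 3 times upstream of MT1B and 1 time upstream of SLC30A1, and no matches overlapped. It was not found in the same window of MTF1. Of 35093 promoter windows of this length, 24.8% held at least 1 match, 1.58% at least 3, 0.368% at least 4, 0.0313% at least 7 and 0.0171% at least 8. A match is a description of the letters and does not show that a factor was bound in these cells.

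The metallothioneins are also alike in their coding sequences, shown for the most abundant one, MT2A, and for MT1M and MT1X, which moved in opposite directions. Capitals in the MT1M and MT1X coding sequences mark the bases that differ from MT2A.
MT2A: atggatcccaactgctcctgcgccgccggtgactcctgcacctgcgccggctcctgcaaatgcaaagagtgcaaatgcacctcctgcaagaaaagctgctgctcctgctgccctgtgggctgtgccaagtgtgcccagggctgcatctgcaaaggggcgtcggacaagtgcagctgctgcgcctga
MT1M: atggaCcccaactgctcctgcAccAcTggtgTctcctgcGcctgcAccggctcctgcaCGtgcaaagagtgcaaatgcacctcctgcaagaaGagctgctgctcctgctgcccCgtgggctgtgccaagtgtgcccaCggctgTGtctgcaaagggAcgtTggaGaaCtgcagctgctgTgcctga
MT1X: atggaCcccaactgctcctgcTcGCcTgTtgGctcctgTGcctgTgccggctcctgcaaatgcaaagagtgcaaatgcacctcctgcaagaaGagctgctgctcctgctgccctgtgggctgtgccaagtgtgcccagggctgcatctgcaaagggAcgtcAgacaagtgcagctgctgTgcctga
Each is 186 bases long with 20 cysteine codons. MT1M differed from MT2A at 19 bases (89.8% identity), MT1X from MT2A at 14 (92.5%) and MT1M from MT1X at 18 (90.3%). Likeness of this degree matters for counting, so each 150-base window of the transcripts was looked up in the transcripts of all other genes. No window of MT2A, MT1E, MT1F, MT1G, MT1H or MT1M was shared, while 17 of 255 windows of MT1X (6.67%) were. The MT1F transcript searched has 425 bases and the length behind its FPKM is 467, so the search may not cover all of its signal. In addition, 18.6% of the exon bases of MT1X lie in a gene on the same strand, so a part of the MT1X signal is uncertain. No member had exon bases overlapped by an antisense gene.

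Levels are given as FPKM, fragments per kilobase of gene scaled to the mapped fragments of the library. Libraries held 34189091 to 36291596 fragments, recovered as whole numbers from the FPKM values. TRIB3 itself fell with both hairpins, by 0.99 (SE 0.030) and 1.70 (SE 0.030) on the log2 scale. The hepatocyte markers were present, with 10 of 10 at a mean of at least 1 FPKM in each group, against 0 of 6 fibroblast and 0 of 5 endothelial markers. Of 6 immune markers, 4 reached that level in shCtrl and 3 in the knockdowns, and their summed level ran from 1058 to 1179 FPKM in shCtrl, from 534 to 561 in shTRIB3-1 and from 614 to 653 in shTRIB3-2. Nearly all of it was LYZ, while the defining leukocyte genes PTPRC and CD3E were at 0 in shCtrl and at most 0.042 FPKM elsewhere. The part of that list in the results below was not tested.

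In shCtrl cells the members spanned a wide range of levels per gene length. MT2A was highest at 260.4 ± 18 FPKM, followed by MT1G at 152 ± 5.3, MT1E at 108 ± 3.6 and MT1F at 69.9 ± 6.7 (SD, n = 3), and the ranges of these neighbours were apart. MT1X (34.9 ± 2.7) and SLC30A1 (32.9 ± 1.8) came next, with ranges that overlapped. MT1M (6.77 ± 1.3), MTF1 (3.82 ± 0.14) and MT1H (0.163 ± 0.039) were lowest, each apart from the next. MT2A thus ranked 164th and MT1H 13461st among the 24204 symbols. The gene length behind the value was 746 bases for MT1E and 397 to 467 bases for the other metallothioneins, so the place of MT1E depends on the transcript that was used for its length.

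**Figure D1:**
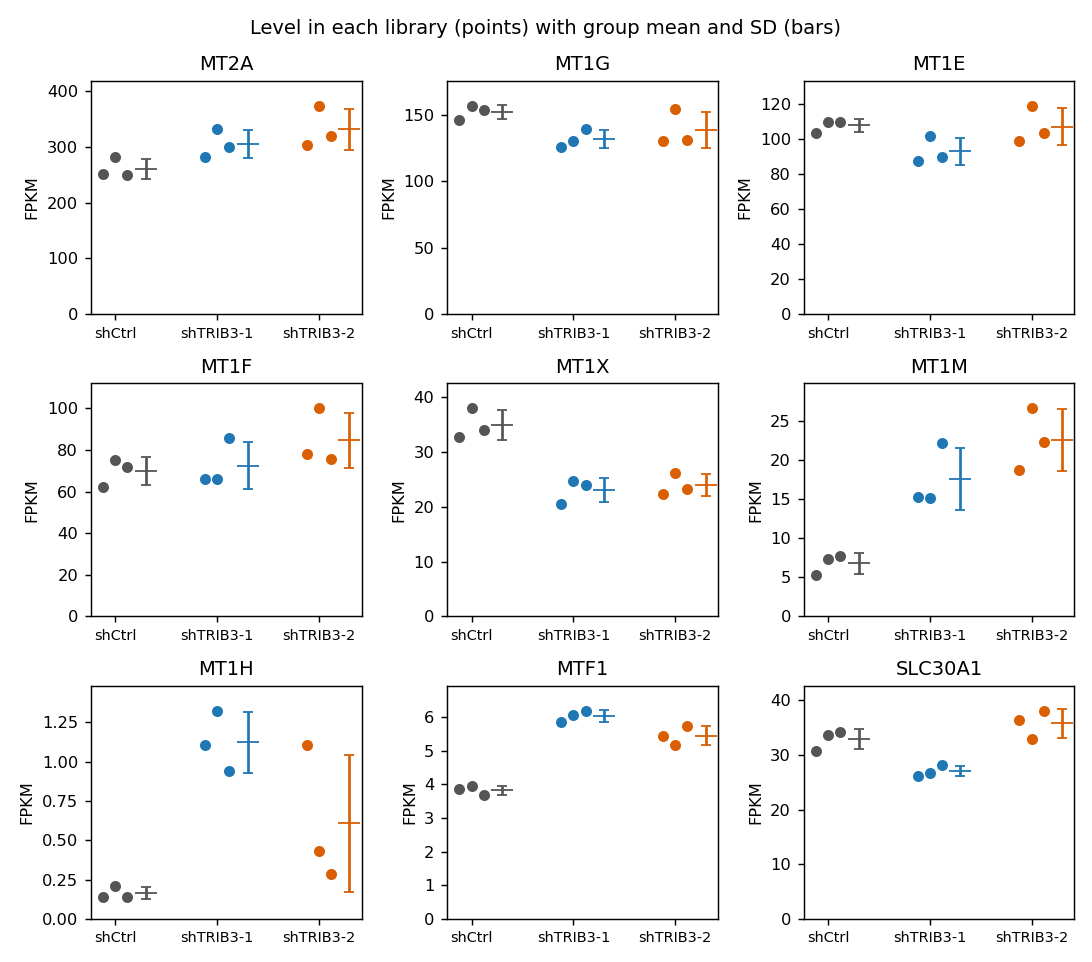
FPKM (y axes, each from 0) of the 9 members in each of the 9 libraries, with points for libraries and bars for the mean and SD of the 3 libraries of a group. MT1M and MTF1 were higher in every knockdown library than in every shCtrl library, MT1X was lower, and SLC30A1 was lowest in shTRIB3-1.

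Knockdown of TRIB3 changed the metallothioneins in different directions. MT1M rose 2.59-fold and 3.33-fold, MT1X fell with both hairpins, and the more abundant MT2A, MT1G, MT1E and MT1F moved by less than 1.3-fold or did not pass the test. MT1H rose from a level close to its detection limit. Fold changes and tests are from limma on log2(FPKM + 0.1) across 11265 genes with at least 1 FPKM in at least 3 libraries. All 9 members passed that filter, but MT1H did so through 2 shTRIB3-1 libraries and 1 shTRIB3-2 library and no shCtrl library, so it had to differ to be tested. In these bulk samples a change in RNA per cell and a change in the share of cells that make it cannot be told apart.

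MT1M rose with both hairpins. It stood at 5.27, 7.33 and 7.71 FPKM in shCtrl, at 15.3, 15.2 and 22.2 in shTRIB3-1 and at 18.7, 26.6 and 22.3 in shTRIB3-2. All 6 knockdown libraries were above all 3 shCtrl libraries, and the ranges of the hairpins overlapped. With shTRIB3-1 MT1M rose by 1.36 on the log2 scale (SE 0.17, limma adjusted p = 1.43e-05) and by 1.72 with shTRIB3-2 (SE 0.17, limma adjusted p = 1.51e-06). Between the hairpins the difference was 0.37 with a 95% interval from -0.0053 to 0.74 (limma adjusted p = 0.0996). The level rested on 75 to 368 fragments per library, and the summed fragments gave ratios of 2.59 (95% exact interval 2.26 to 2.98) and 3.33 (2.91 to 3.81), intervals that cover counting error only. Leaving out replicate 3 of shTRIB3-1, the highest library of that group, moved the difference between the hairpins to 0.55 (limma adjusted p = 0.0170).

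MT1X moved the other way. Its levels were 32.7, 38.0 and 34.0 FPKM in shCtrl, 20.5, 24.7 and 24.05 in shTRIB3-1 and 22.4, 26.2 and 23.3 in shTRIB3-2. No knockdown library reached the lowest shCtrl library. MT1X fell by 0.59 on the log2 scale with shTRIB3-1 (SE 0.078, limma adjusted p = 2.04e-05) and by 0.54 with shTRIB3-2 (SE 0.078, limma adjusted p = 4.57e-05). The hairpins differed by 0.057 with an interval from -0.11 to 0.23 (limma adjusted p = 0.582). Within a library, the ratio of MT1M to MT1X was 0.161, 0.193 and 0.227 in shCtrl, 0.743, 0.614 and 0.922 in shTRIB3-1 and 0.835, 1.012 and 0.954 in shTRIB3-2. The pair therefore went from clearly unequal in shCtrl to nearly equal with shTRIB3-2.

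MT1H was detected in all libraries but on few fragments, 2, 3 and 2 in shCtrl, 15, 18 and 13 in shTRIB3-1 and 15, 6 and 4 in shTRIB3-2. These were 0.141, 0.208 and 0.141 FPKM, then 1.10, 1.32 and 0.941, then 1.10, 0.434 and 0.287. Every knockdown library was above every shCtrl library, and within shTRIB3-2 replicate 1 stood apart from the other libraries at the level of shTRIB3-1. Summed fragments gave a ratio to shCtrl of 6.87 for shTRIB3-1 (95% exact interval 3.08 to 18.0) and of 3.70 for shTRIB3-2 (1.56 to 10.1), intervals that cover counting error only, while the 3 shTRIB3-2 libraries differed from each other by more than the shCtrl libraries did. Since the filter chose MT1H by its knockdown levels, its test is given from the fit without a filter on low values. There the log2 fold changes were 2.21 (SE 0.38, limma adjusted p = 0.00124) and 1.27 (SE 0.38, limma adjusted p = 0.0244), and they depend on the added 0.1. With 1 added in its place they were 0.86 and 0.44, under the fold-change limit of 1. Between the hairpins, the level with shTRIB3-2 minus that with shTRIB3-1 was -0.95 and did not pass without a filter (SE 0.38, limma adjusted p = 0.1203).

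MT2A, which alone among the members belongs to the MT2 class, rose slightly. It was at 251, 282 and 249 FPKM in shCtrl, at 283, 331 and 300.2 in shTRIB3-1 and at 303, 373 and 319 in shTRIB3-2. The lowest knockdown library stood just above the highest shCtrl library. With shTRIB3-1 the rise was 0.23 on the log2 scale (SE 0.078, limma adjusted p = 0.0201) and 0.35 with shTRIB3-2 (SE 0.078, limma adjusted p = 0.00150). The first of these did not pass without shCtrl replicate 1 (0.20, limma adjusted p = 0.0590), shCtrl replicate 3 (0.19, limma adjusted p = 0.0672) or shTRIB3-1 replicate 2 (0.16, limma adjusted p = 0.0897), nor without a filter on low values (limma adjusted p = 0.0767) or without the mean-variance trend (limma adjusted p = 0.0504).

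MT1G and MT1E, the next most abundant members, were slightly lower with shTRIB3-1. MT1G was at 147, 157 and 154 FPKM in shCtrl, at 126, 131 and 139 in shTRIB3-1 and at 130.3, 154 and 131 in shTRIB3-2. Here all shTRIB3-1 libraries were below shCtrl, and 1 shTRIB3-2 library lay inside the shCtrl range. MT1G fell by 0.21 on the log2 scale with shTRIB3-1 (SE 0.061, limma adjusted p = 0.00795), which did not pass when libraries were centred on their median (-0.13, limma adjusted p = 0.139). With shTRIB3-2 it was at the threshold, -0.14 (SE 0.061, limma adjusted p = 0.0494), and leaving out any one of shCtrl replicate 2 or 3, shTRIB3-1 replicate 1 or 2 and shTRIB3-2 replicate 1 or 3 put it past 0.05, with adjusted p from 0.0505 to 0.185. It also failed with median centring (-0.091, limma adjusted p = 0.285), without a filter (limma adjusted p = 0.14) and without the trend (limma adjusted p = 0.1003), and it passed in 8 of 19 alternatives.

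MT1E was at 104, 109.8 and 110.1 FPKM in shCtrl, at 87.4, 102 and 90.0 in shTRIB3-1 and at 98.9, 119 and 103 in shTRIB3-2. The shTRIB3-1 libraries were below shCtrl and the shTRIB3-2 libraries lay on either side of it. MT1E fell by 0.22 with shTRIB3-1 (SE 0.068, limma adjusted p = 0.0127), not passing without shTRIB3-1 replicate 1 (-0.17, limma adjusted p = 0.0564) or with median centring (-0.14, limma adjusted p = 0.151). Nor did this fall pass without a filter on low values (limma adjusted p = 0.0523), and it passed in 16 of 19 alternatives. With shTRIB3-2 the difference was -0.014 with an interval from -0.16 to 0.13 (limma adjusted p = 0.860), and its sign changed with median centring (0.037). The difference between the hairpins, 0.20 (SE 0.068, limma adjusted p = 0.0302), was lost without shTRIB3-1 replicate 1 (0.16, limma adjusted p = 0.114), shTRIB3-1 replicate 3 (0.18, limma adjusted p = 0.0926) or shTRIB3-2 replicate 2 (0.12, limma adjusted p = 0.125). It was also lost without a filter on low values (limma adjusted p = 0.107), and it passed in 13 of 19 alternatives.

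MT1F did not pass the test with either hairpin. Its levels were 62.4, 75.4 and 71.8 FPKM in shCtrl, 66.0, 65.9 and 85.8 in shTRIB3-1 and 77.9, 99.99 and 75.9 in shTRIB3-2. The shTRIB3-1 libraries overlapped shCtrl and the shTRIB3-2 libraries were just above it. The log2 differences were 0.047 with an interval from -0.21 to 0.30 (limma adjusted p = 0.728) and 0.27 with an interval from 0.012 to 0.53 (limma adjusted p = 0.0543). The second passed without shCtrl replicate 2 (0.33, limma adjusted p = 0.0402), without shTRIB3-1 replicate 3 (0.27, limma adjusted p = 0.0234) and without shTRIB3-2 replicate 1 (0.32, limma adjusted p = 0.0465) or replicate 3 (0.34, limma adjusted p = 0.0339).

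**Figure D2:**
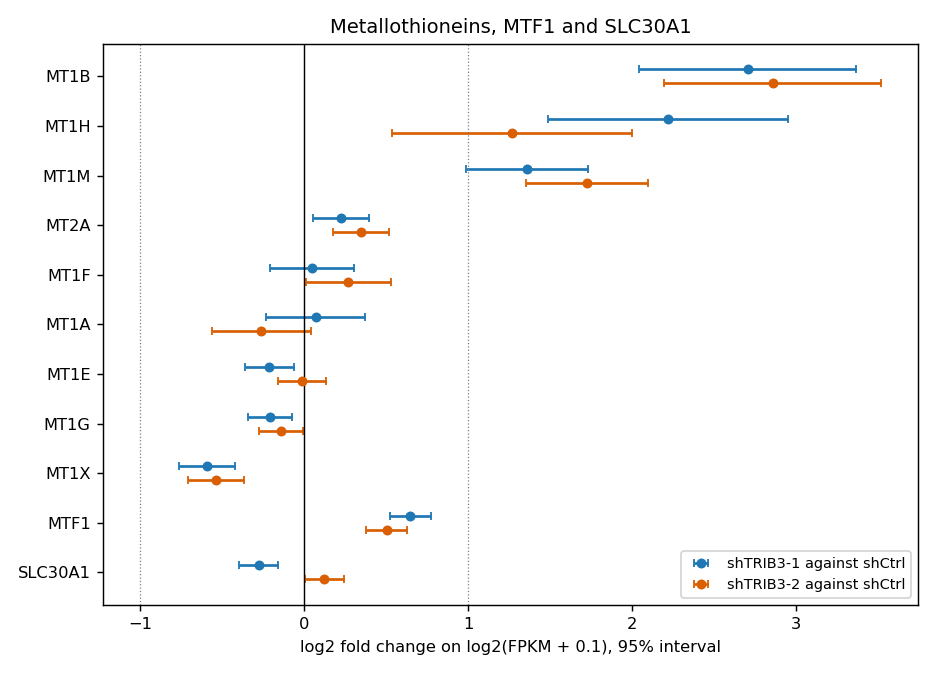
Log2 fold change of log2(FPKM + 0.1) against shCtrl (x axis) with its 95% interval for the 9 members and for MT1A and MT1B, with 1 colour per hairpin and dotted lines at -1 and 1. MT1B, MT1H and MT1M lie to the right of 1, MT1X lies left of 0 with both hairpins, and the points of SLC30A1 and of MT1A lie on opposite sides of 0.

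Because the abundant transcripts moved little, the summed level of the 7 metallothioneins was close between the groups. The sum of 632 ± 34 FPKM in shCtrl compared with 644 ± 39 for shTRIB3-1 and 709 ± 79 for shTRIB3-2 (SD, n = 3), with overlapping ranges of 601 to 669, 599 to 671 and 653 to 800.0. The make-up of this sum shifted. MT2A held 41.2% ± 1.3 of it in shCtrl, 47.3% ± 2.0 with shTRIB3-1 and 46.8% ± 0.42 with shTRIB3-2, and MT1G held 24.1%, 20.5% and 19.6%. The share of MT1X went from 5.51% to 3.58% and 3.39%, that of MT1M from 1.07% to 2.72% and 3.16%, and that of MT1F stayed between 11.04% and 11.9%. Shares of 1 sum depend on each other, so these are given as a description.

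**Figure D3:**
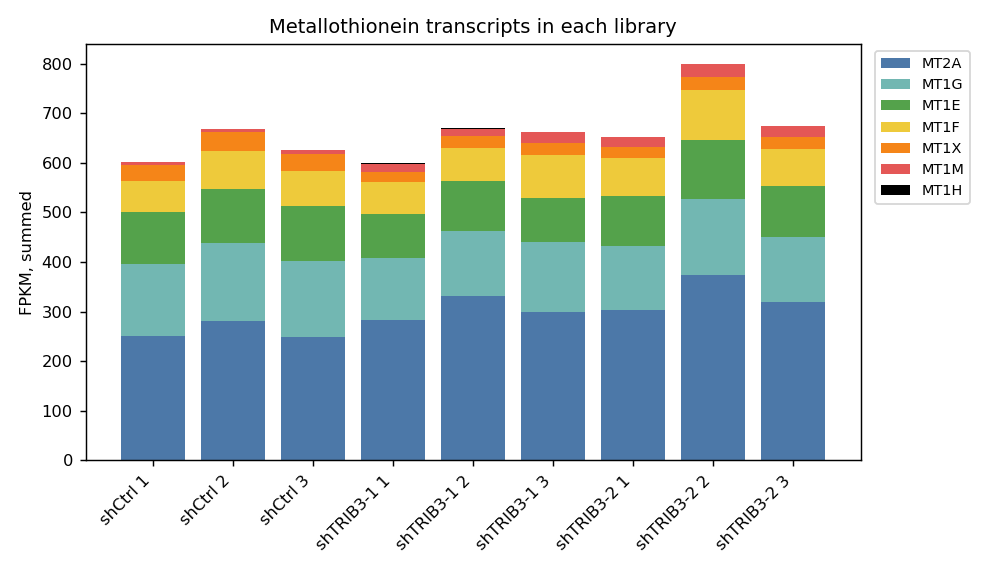
Summed FPKM of the 7 metallothioneins (y axis) in each of the 9 libraries, with 1 bar per library and 1 colour per gene. The sums run from 599 to 800.0, with shTRIB3-2 replicate 2 highest, and the MT1M band is thicker and the MT1X band thinner in the 6 knockdown libraries.

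Replicate 2 of shTRIB3-2 was the highest of its group for 6 of the 7 metallothioneins, MT1H being the exception, whereas it was the highest for 21.7% of all tested genes. Replicate 2 was also the highest library for 5 of 7 in shCtrl and 4 of 7 in shTRIB3-1, against 29.7% and 33.8% of tested genes. The part of this in the differences between groups was not tested beyond leaving out each library and a fit with the replicate number as a block.

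MTF1, the transcription factor of the pathway, was higher with both hairpins. It was at 3.85, 3.94 and 3.67 FPKM in shCtrl, at 5.84, 6.06 and 6.18 in shTRIB3-1 and at 5.44, 5.16 and 5.73 in shTRIB3-2, from 1166 to 1907 fragments per library. The 3 groups did not overlap. The rise was 0.65 on the log2 scale with shTRIB3-1 (SE 0.058, limma adjusted p = 6.58e-07) and 0.50 with shTRIB3-2 (SE 0.058, limma adjusted p = 5.94e-06), or 1.58-fold and 1.43-fold. Between the hairpins the difference was -0.14 with an interval from -0.27 to -0.018 (limma adjusted p = 0.0596), which passed without shTRIB3-2 replicate 3 (-0.18, limma adjusted p = 0.0389) and with median centring (-0.17, limma adjusted p = 0.0152).

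SLC30A1 was the member on which the hairpins differed most clearly. This zinc exporter was at 30.8, 33.6 and 34.2 FPKM in shCtrl, at 26.2, 26.8 and 28.1 in shTRIB3-1 and at 36.3, 33.0 and 38.1 in shTRIB3-2, from 5293 to 7877 fragments per library. All shTRIB3-1 libraries were below both other groups, which overlapped each other. SLC30A1 fell by 0.28 with shTRIB3-1 (SE 0.055, limma adjusted p = 0.000614). With shTRIB3-2 the difference from shCtrl was 0.12 with an interval from 0.0010 to 0.24 (limma adjusted p = 0.0627), and it passed without shCtrl replicate 3 (0.15, limma adjusted p = 0.0435), without shTRIB3-2 replicate 2 (0.18, limma adjusted p = 0.00909) and with median centring (0.17, limma adjusted p = 0.00662). The hairpins differed by 0.40 (SE 0.055, limma adjusted p = 0.000113), with values from 0.36 to 0.46 under all 19 alternatives.

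Counted together, 3 of the 8 members other than MT1H were higher with shTRIB3-1 at an adjusted p under 0.05 (MT1M, MT2A and MTF1) and 4 were lower (MT1E, MT1G, MT1X and SLC30A1), where 32.9% of all tested genes were higher and 41.5% lower. With shTRIB3-2, the same 3 were higher and 2 were lower (MT1G and MT1X), where 35.4% of tested genes were higher and 40.5% lower. These shares are near the background and do not set the members apart from other genes. With a log2 fold change above 1 required as well, only MT1M of the 8 was called with each hairpin and none lower, beside 5.39% of tested genes called higher and 6.10% lower with shTRIB3-1 and 6.06% and 6.27% with shTRIB3-2. Both comparisons use the same shCtrl libraries. Between the hairpins 2 of the 8 were higher in shTRIB3-2 (MT1E and SLC30A1, against 25.1% of tested genes), none was lower (20.7%), and none passed the fold-change limit in either direction (0.284% and 1.79%).

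Among other metallothionein genes, 3 of 13 listed symbols were in the table. MT1B, which lies between MT1A and MT1F in the cluster (56651886 to 56653204, plus strand), stood out. It was at 1.78, 0.7008 and 2.20 FPKM in shCtrl, at 8.85, 8.32 and 12.6 in shTRIB3-1 and at 9.67, 10.6 and 12.5 in shTRIB3-2, from 10 to 172 fragments per library. The knockdown libraries were all far above shCtrl and the hairpins overlapped. The log2 fold change was 2.70 (SE 0.30, limma adjusted p = 5.09e-06) with shTRIB3-1 and 2.86 (SE 0.30, limma adjusted p = 2.79e-06) with shTRIB3-2. Another gene on the same strand covers 30.5% of the exon bases of MT1B, so its reads may be shared. MT1A did not pass the test with either hairpin (0.069 with an interval from -0.23 to 0.37, and -0.26 with an interval from -0.57 to 0.039), and MT1HL1 was at 0 in all libraries but 1, which held 1 fragment.

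MT1M, MT1B and MT1H, the genes with the largest rises, are not next to each other in the cluster. The genes that lie beside or between them, MT1E, MT1A, MT1F and MT1G, differed from shCtrl by at most 0.27 on the log2 scale, and MT1X, the next gene after MT1H, fell. Outside the cluster, 6 of 9 neighbouring genes of chromosome 16 were tested, and 1 was higher, 4 were lower and 1 did not pass with each hairpin. Over all tested genes, 32.9% were higher and 41.5% lower with shTRIB3-1, and 35.4% and 40.5% with shTRIB3-2. The neighbours were not tested as a set. The largest mean change of the tested neighbours was in NUDT21, a pre-mRNA cleavage factor subunit, which fell by 0.79 and 0.74 (limma adjusted p = 3.51e-10 and 4.50e-10). Another gene on the same strand overlaps 45.9% of its exon bases.

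**Figure D4:**
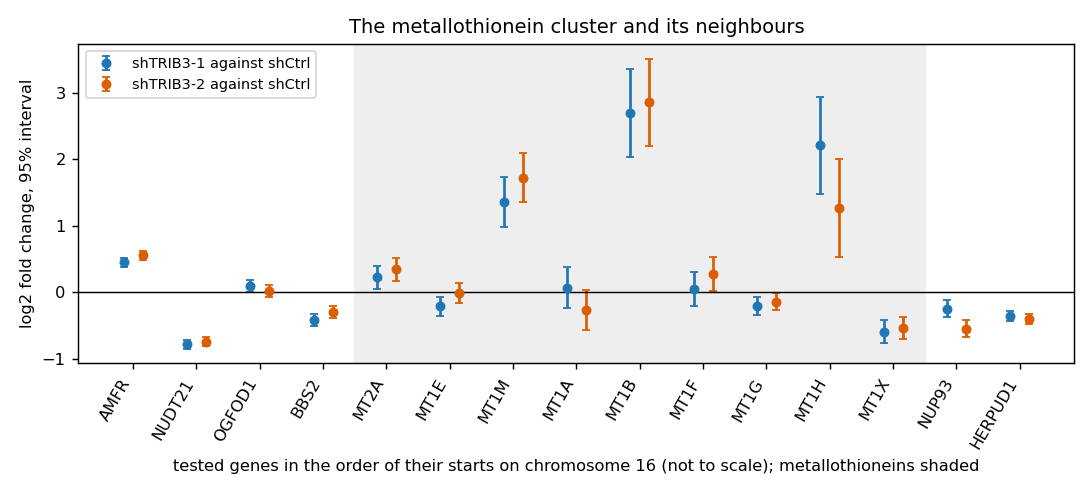
Log2 fold change against shCtrl with its 95% interval (y axis) for the tested genes of the cluster (shaded) and its neighbours, in the order of their starts on chromosome 16 (x axis, not to scale), with 1 colour per hairpin. MT1M, MT1B and MT1H stand above 1 and are separated by genes near 0.

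Counts of the lists that follow are read against the shares of all tested genes, 32.9% higher and 41.5% lower with shTRIB3-1 and 35.4% higher and 40.5% lower with shTRIB3-2. The other genes of the SLC30 family were listed as zinc exporters, and most of their products carry zinc out of the cytosol into vesicles or out of the cell. Of 6 tested, 4 were lower, 1 was higher and 1 did not pass with shTRIB3-1, and 5 were lower and 1 did not pass with shTRIB3-2. Their median log2 fold changes were -0.47 and -0.41, beside -0.056 and -0.035 over all tested genes. SLC30A6, a transporter of the secretory pathway, went from 9.43 ± 0.28 FPKM to 5.39 ± 0.16 and 6.19 ± 0.25 (SD, n = 3), a fall of 0.80 and 0.60 on the log2 scale (limma adjusted p = 2.83e-08 and 3.21e-07).

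Of the SLC39 importers, which bring zinc into the cytosol, 11 of 14 were tested. With shTRIB3-1, 5 were lower and 1 was higher, and with shTRIB3-2, 7 were lower and 3 were higher, with medians of -0.12 and -0.26. The share lower with shTRIB3-1 was near that of all tested genes. SLC39A14, the importer of zinc and non-transferrin iron that liver makes in inflammation, had the largest mean change, from 196 ± 8.2 FPKM to 97.7 ± 1.0 and 117 ± 1.5 (SD, n = 3). It fell to 0.499 and 0.599 of the shCtrl level (limma adjusted p = 9.19e-11 and 9.61e-10). SLC39A6, named here after its values were seen, was higher with both hairpins, at 22.8 ± 0.46, 39.8 ± 0.58 and 40.04 ± 0.34 FPKM.

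**Figure D5:**
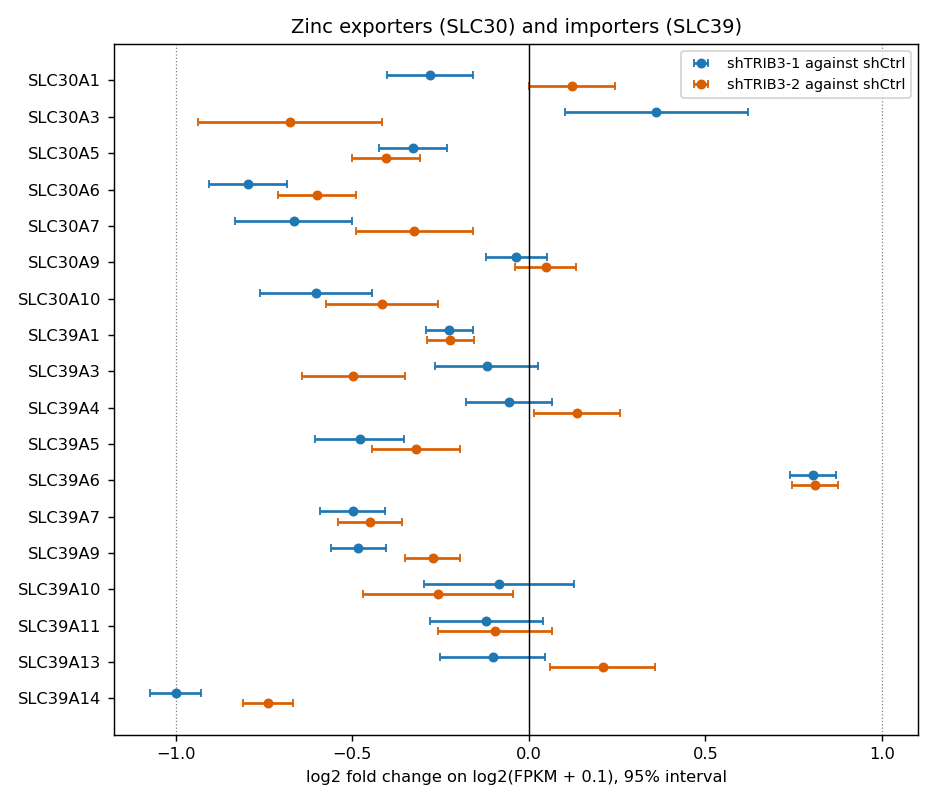
Log2 fold change against shCtrl with its 95% interval (x axis) for SLC30A1, 6 other tested SLC30 genes and 11 tested zinc importers, with 1 colour per hairpin and dotted lines at -1 and 1. SLC39A14 lies farthest left and SLC39A6 farthest right. SLC30A1, SLC30A3, SLC30A9, SLC39A4 and SLC39A13 lie on opposite sides of 0 with the 2 hairpins.

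Copper handling genes, whose products carry the other metal that metallothioneins bind in liver, did not move in 1 direction. Of 12 tested, 4 were higher and 4 lower with shTRIB3-1, and 1 was higher and 4 lower with shTRIB3-2, with medians of -0.054 and 0.013. CP, which encodes the copper-carrying ferroxidase ceruloplasmin, went from 12.3 ± 1.5 FPKM to 3.99 ± 0.47 and 4.03 ± 0.28 (SD, n = 3), a fall of 1.60 and 1.58 (limma adjusted p = 2.69e-08 and 2.53e-08).

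Genes that respond to heavy metals and oxidants moved with the hairpins to different extents. Of 13 tested, 10 were higher with each hairpin, with a median of 1.15 for shTRIB3-1 and 0.33 for shTRIB3-2, and 11 of 13 were lower in shTRIB3-2 than in shTRIB3-1, beside 20.7% of all tested genes. The list holds heat shock genes, and these had the largest values. Among its other genes, HMOX1, TXNRD1, SRXN1 and GCLC were higher with both hairpins. NQO1 (-0.18 and -0.30) and GCLM (-0.16 and -0.28) were lower with both, and SLC7A11 was lower with shTRIB3-2 (-0.75). These genes were named after their values were seen. HSPA1A, an inducible chaperone, went from 80.4 ± 1.9 FPKM to 678 ± 51 with shTRIB3-1 and 172 ± 3.7 with shTRIB3-2 (SD, n = 3), while HSPA6 went from 1.76 ± 0.23 to 130.1 ± 6.2 and 26.9 ± 1.2. For MT1M and MT1B the level with shTRIB3-2 minus that with shTRIB3-1 was 0.37 and 0.15, neither of which passed (limma adjusted p = 0.0996 and 0.710). For MT1H it was -0.95 and for MTF1 -0.14, the direction of most of these stress genes. Neither passed, with limma adjusted p = 0.1203 for MT1H without a filter and 0.0596 for MTF1. For MT1E, MT1F, MT1G, MT1X, MT2A and SLC30A1 the difference was above 0, from 0.057 to 0.40. Of these, MT1E and SLC30A1 passed (limma adjusted p = 0.0302 and 0.000113). A link between the members and the stress genes was not tested.

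Glucocorticoid-responsive genes and genes of the interleukin-6 and acute-phase response were read for the other known inducers of metallothioneins. Of 10 glucocorticoid-responsive genes tested, 5 were higher and 2 lower with shTRIB3-1, and 5 were higher and 4 lower with shTRIB3-2, the latter near the share of all tested genes, with medians of 0.15 and 0.25. The gene TSC22D3, 1 of the 5 higher genes, reached the filter in knockdown libraries only. DUSP1, a phosphatase that switches off MAP kinases, rose from 16.1 ± 0.73 FPKM to 75.5 ± 3.6 and 72.6 ± 2.8, and PCK1, an enzyme of gluconeogenesis, from 1.46 ± 0.046 to 17.8 ± 0.41 and 8.65 ± 0.41, while CEBPD, a transcription factor, fell from 15.9 ± 2.1 to 5.63 ± 0.19 and 4.47 ± 0.13 (SD, n = 3). Limma called all of them with each hairpin. Of 15 interleukin-6 and acute-phase genes tested, 12 were lower with each hairpin, and 2 and 3 were higher, with medians of -0.92 and -0.50. The receptor gene IL6R rose from 13.03 ± 0.33 FPKM to 33.6 ± 1.3 and 33.5 ± 0.86, and the fibrinogen gene FGG fell from 1160 ± 84 to 364 ± 16 and 499 ± 13. HP and SERPINA3 were also called lower with both hairpins. HAMP and ITIH4, which are among the 12, reached the filter in shCtrl libraries only, so they had to differ to be tested. Without a filter their log2 fold changes were -4.46 and -4.28 for HAMP (limma adjusted p = 2.05e-06 and 2.34e-06) and -3.16 and -2.85 for ITIH4 (limma adjusted p = 3.38e-08 and 4.04e-08).

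The genes whose levels most resembled the mean log2 level of the 7 metallothioneins over the 9 libraries were UBE2E3 (Pearson r = 0.983), TUBD1 (0.976), MYDGF (0.974), AP1M2 (0.9695) and ETFA (0.969). The metallothionein mean of 4.87 ± 0.12 in shCtrl compared with 5.28 ± 0.092 for shTRIB3-1 and 5.29 ± 0.14 for shTRIB3-2 (SD, n = 3). It gives MT1H and MT1M as much weight as MT2A. MT1H passed the filter through knockdown libraries only and had the largest rise of the 7 with shTRIB3-1 (2.21 on the log2 scale). With shTRIB3-1, MT1M rose by 1.36 and the remaining metallothioneins ran from -0.59 (MT1X) to 0.23 (MT2A). The rise of the mean and the 5 genes named therefore depend on how MT1H was selected, to an extent that was not measured. For the 8 members other than MT1H, which include MTF1 and SLC30A1, the median log2 fold changes against shCtrl were -0.081 and 0.20. The mean without MT1H was not examined. The libraries fall into 3 groups, so these correlations are a description and carry no p-value.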

How the data were processed

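RNA was measured in 9 HepG2 libraries, 3 per group, assigned by their labels. The authors deposited FPKM per gene symbol, on GRCh38. The submitters' processing notes list HTSeq and R 3.2.0, and the study's methods name STAR and DESeq2. The annotation release and strand setting are not given in the sources used here. FPKM does not correct for a shift in composition. Whole fragments were recovered from the FPKM values, where 100% of 172769 values above 0 came within 0.02 of one. Totals of 34189091 to 36291596 limit genes with few fragments most. Values were tested as log2(FPKM + 0.1), for genes with FPKM of at least 1 in at least 3 libraries, with limma 3.58.1 in R 4.3.3 (3 group means, moderated with a mean-variance trend, two-sided, Benjamini-Hochberg over 11265 genes). Calls needed an adjusted p below 0.05 and a log2 fold change beyond 1 in either direction. Fold changes on this scale understate the change of low genes. The fit was tested on simulated data. Members, lists and tests were chosen with earlier results of these data known, and the lists were written from general knowledge. Of each list, genes called with both hairpins were named, or else the 1 with the largest mean absolute change, and so were the 5 genes most like the metallothionein mean. Alternatives changed the pseudocount, filter, scaling, trend, block, groups or tool, or left out a library. Replicates were compared before averaging, and none was a copy of another.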

Additional observations from a re-analysis of the deposited data

Results flagged for a closer look

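SLC30A1 responded differently to the hairpins by a test of the difference itself. It was higher in shTRIB3-2 than in shTRIB3-1 by 0.40 on the log2 scale (limma adjusted p = 0.000113), with 3 of 3 shTRIB3-2 libraries above 3 of 3 shTRIB3-1 libraries. At an adjusted p under 0.05, 25.1% of all tested genes were higher in shTRIB3-2 than in shTRIB3-1 and 20.7% were lower. Of the other SLC30 genes 2 of 6 tested were higher and 1 was lower, and of the SLC39 genes 5 of 11 were higher and 1 was lower. Against shCtrl SLC30A1 fell by 0.28 with shTRIB3-1 (limma adjusted p = 0.000614), and the difference of 0.12 with shTRIB3-2 did not pass (limma adjusted p = 0.0627). The TRIB3 level with shTRIB3-2 minus that with shTRIB3-1 was -0.71, and its part in this difference was not tested.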

How the results depend on the processing

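MT1M, MT1X and MTF1 against shCtrl with both hairpins, MT2A with shTRIB3-2, and SLC30A1 with shTRIB3-1 and between the hairpins kept their direction and passed the adjusted p of 0.05 under all 19 alternatives. MT1H could be fitted in 15 alternatives, most of which kept it for its knockdown levels, so they say nothing of its stability. It failed the filter at an FPKM of 5 and without shTRIB3-1 replicate 1 or 2 or shTRIB3-2 replicate 1. MT1H also decided the count of members called. That count went from 2 to 1 with each hairpin at a pseudocount of 1 and at an FPKM of at least 5, and from 0 to 1 between the hairpins at a pseudocount of 0.01, with TPM and with limma-voom on whole fragments. Leaving out single libraries gave 1 to 2, 1 to 2 and 0 to 1 called members in the 3 comparisons. The count of members past an adjusted p of 0.05 between the hairpins was 3, against 1 without a filter, 5 with voom and 1 to 4 when single libraries were left out. Small differences changed sign. MT1F with shTRIB3-1 was -0.0072 with TPM and -0.079 to 0.11 over left-out libraries. MT1E with shTRIB3-2 was 0.037 with median centring and -0.093 to 0.041 over left-out libraries. Between the hairpins, MT1X ran from -0.025 to 0.11 and MT1G from -0.014 to 0.11 over left-out libraries. The cause of these changes was not tested, other than the filter for MT1H.

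Replicate numbers are shared by the groups, but over all tested genes they did not pair the libraries. The correlation of deviations of same-numbered libraries ran from -0.074 to 0.093, with 0 of 9 pairs above 0.1. The metallothioneins had more in common, as replicate 2 was highest for 5, 4 and 6 of the 7 in the 3 groups, MT2A among them each time. With the replicate number as a block, 5 members passed between the hairpins in place of 3, the added ones being MT1M (limma adjusted p = 0.0244) and MT2A (limma adjusted p = 0.0102), and MT1F and SLC30A1 passed with shTRIB3-2 (limma adjusted p = 0.0377 and 0.0326). With shTRIB3-1 the block moved the limma adjusted p of MT2A from 0.0201 to 8.00e-05 and of MT1E from 0.0127 to 0.000622. That of MTF1 went the other way, from 6.58e-07 to 4.56e-06.

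Depth limits MT1H, with 2 to 18 fragments per library, and MT1B in shCtrl. For the abundant metallothioneins the spread between 3 libraries sets the precision. The file holds no protein or zinc measurement, so levels here are of transcripts only.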
